A study of Mus musculus with 12 samples.

Results

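The enzymes that write, copy and remove DNA methylation were followed in the RNA of mouse female germline stem cells (FGSCs). The members were *Dnmt1*, *Dnmt3a*, *Dnmt3b*, *Dnmt3l*, *Uhrf1*, *Uhrf2*, *Tet1*, *Tet2*, *Tet3* and *Usp7*. They were chosen by gene symbol and by no rule on a measured value, with earlier results of these data known. They make up 10 of the 24813 genes in the deposited count table, and 34 of its 41388 listed RefSeq transcripts. RNA-seq had been performed on 12 libraries in 4 groups of 3, all of C57BL/6 FGSCs beyond passage 20 and grown on inactivated STO feeder cells, a mouse fibroblast line. KO was a *Stella*-knockout line made with CRISPR/Cas9 from 1 clone picked at random, and KO-con was its control. Over was a line that carried a lentiviral *Stella* transgene under puromycin selection, and Over-con carried the empty lentiviral vector. Because KO was 1 clone, knockout and cloning cannot be told apart as sources of a difference. The sources used here do not say whether the 3 libraries of a group came from separate cultures, so the p-values measure only the spread between these libraries, which may be technical.

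Methylation of cytosine in CpG dinucleotides is copied to the new DNA strand after replication by DNMT1, which UHRF1 brings to hemimethylated sites. DNMT3A and DNMT3B set new methylation, and DNMT3L, which has no catalytic activity of its own, assists them in germ cells. The TET enzymes oxidize 5-methylcytosine, a step on the way to its removal, and USP7 is a deubiquitinase that binds DNMT1 and UHRF1 and stabilizes them. *Stella* (listed as *Dppa3*) encodes a chromatin protein of germ cells and early embryos that binds UHRF1 and affects DNA methylation, which is why the mRNAs of this machinery were examined in its knockout and overexpression.

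Counts per library ranged from 5611846 to 12866545 (median 10221419), so that 3 counts in a library stood for 0.230 to 0.528 CPM (a count scaled by edgeR's TMM method and given relative to a common library size), a floor that covers counting error only. *Stella* itself had 0 counts in each KO, KO-con and Over-con library, which allows up to 3 counts a library, and 347, 371 and 285 counts in Over. The RNA therefore checked the label of the overexpressing line, and a loss of *Stella* mRNA in the knockout could not be seen at these depths. Among the 10 germ cell markers, *Ifitm3* lay between 76.8 and 164.0 CPM, while *Zfp42*, which has 1 listed transcript, had 0 counts in all 12 libraries, as did *Ddx4* and *Tfap2c* with 2 listed transcripts each. *Dazl*, *Pou5f1* and *Nanos3*, also with 2 transcripts each, had 1 count each over the 12 libraries. Of 12 fibroblast markers, 9 had a mean of at least 1 CPM, with *Col1a2* between 440.7 and 702.7 CPM, and RNA of the feeder cells was not separated from that of the FGSCs. Of 12 mast cell markers, 6 had a mean of at least 1 CPM, led by *Cpa3* between 362.9 and 1214 CPM and *Il1rl1* between 66.4 and 120.6 CPM, while *Fcer1a*, *Ms4a2* and *Tpsab1* were at 0.

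5 of the 10 members, the 4 DNMT genes and *Uhrf1*, could not be followed in these counts. *Dnmt3b*, a de novo methyltransferase with 9 listed transcripts, and *Uhrf1*, the reader of hemimethylated DNA with 4, had 0 counts in all 12 libraries. *Dnmt3a*, the other de novo methyltransferase, had 4 counts in total on 1 of its 3 transcripts and never more than 1 in a library. *Dnmt3l*, the cofactor, had 16 counts over the 12 libraries on 1 of its 6 transcripts, with 1, 1 and 0 counts in KO-con, 1, 4 and 2 in KO, 1, 1 and 1 in Over-con and 2, 0 and 2 in Over. *Dnmt1*, the maintenance methyltransferase with 5 listed transcripts, had 5, 4 and 2 counts in KO-con, 6, 6 and 4 in KO, 6, 3 and 7 in Over-con and 8, 7 and 8 in Over. Of these 66 counts, 65 fell on NM_001199433, whose mean was 0.338 ± 0.0874 CPM in KO-con, 0.525 ± 0.164 in KO, 0.607 ± 0.0759 in Over-con and 0.711 ± 0.162 in Over (SD, n = 3). These levels lie about the floor of 3 counts, no transcript of these 5 genes passed the filter on low counts, and no fold change is given for them.

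The number of listed transcripts ran alongside these gaps across the whole table. Of 13105 protein-coding genes with 1 listed transcript, 50.6% averaged 1 CPM or more and 21.0% had 0 counts in all libraries. Of 7541 with 2 or more, 23.3% reached 1 CPM and 30.9% were at 0, and of 1947 with 4 or more, 23.0% and 34.0%. Genes with 1 transcript held 96.4% of all counts. Among the members, *Uhrf2*, *Tet1* and *Usp7* have 1 listed transcript and all had counts in every library, whereas of the 7 with 2 or more only *Tet2* and *Tet3* reached a mean of 1 CPM. How reads shared between transcripts were treated is not given in the sources used here. For the 5 genes at or near 0 counts, a low mRNA level and reads that were not assigned to any transcript cannot be told apart, and their near-zero counts are not read as absence of expression.

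**Figure D1:**
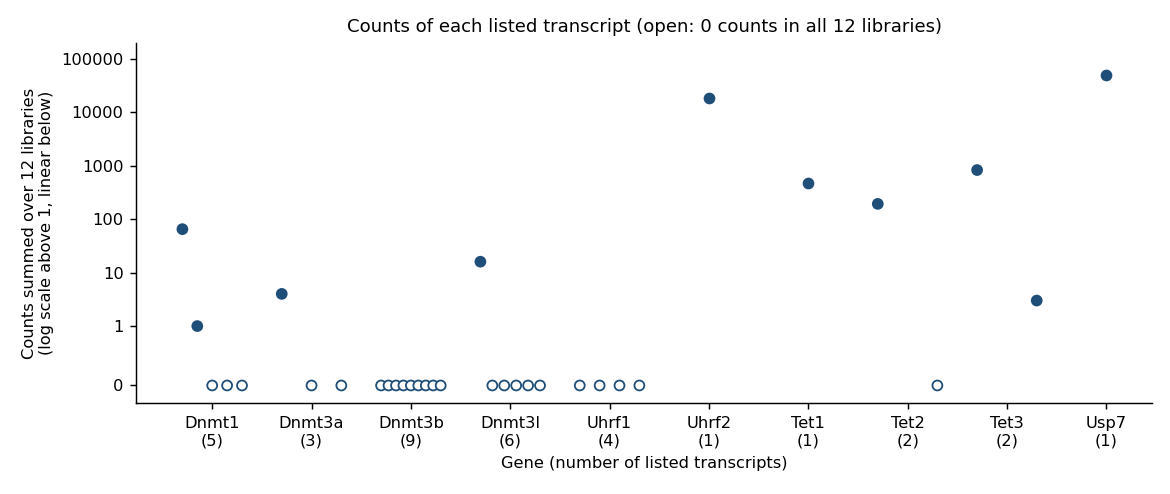
Counts summed over the 12 libraries (vertical axis, log scale above 1 and linear below) of each of the 34 listed transcripts, by gene, with the number of transcripts under each symbol and transcripts at 0 drawn open. The 3 genes with 1 transcript hold 478 to 49261 counts, and all transcripts of *Dnmt3b* and *Uhrf1* are at 0.

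In all, 24 of the 34 member transcripts had 0 counts in every library, 10 had at least 1 count, and 5 passed the filter: *Uhrf2* NM_144873, *Tet1* NM_001253857, *Tet2* NM_001346736, *Tet3* NM_001347313 and *Usp7* NM_001003918. In the GENCODE annotation of mm9, the build of the files, *Uhrf2* spans chr19:30105003-30168212 and is read from the plus strand. The others are read from the minus strand, *Usp7* at chr16:8688815-8792401, *Tet1* at chr10:62267318-62361866, *Tet2* at chr3:133126643-133207354 and *Tet3* at chr6:83312367-83391672. The counts cover their exons as RefSeq lists them.

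Promoters were examined because CpG dinucleotides, the substrate of this machinery, differ widely in number between promoters. RefSeq (GRCm38.p6) gives 17 promoters for the 10 genes, each of 300 bases with 250 before the transcript start and 50 after it. Of these, 13 held at least 7 CpG, the median of 32851 promoters of this length, whose quartiles were 3 and 20. The *Usp7* promoter held 63 CpG, *Tet2* 57, *Uhrf2* 28, *Tet3* 22 and *Tet1* 17, and the promoters of *Dnmt3l* held 6, 4 and 3. Methylation of these windows was not measured in the counts. The promoters of *Uhrf2* (chr19:30030263-30030562, plus strand), *Tet3* (chr6:83441629-83441928, minus strand) and *Usp7* (chr16:8738293-8738592, minus strand) are printed because these genes carry the comparisons that follow, 5′ to 3′ with each CpG in capitals. Each had 1 exact match on its chromosome in mm9, and the start in the *Usp7* window lies 53966 bases inside the gene's outermost start in GENCODE.
Uhrf2: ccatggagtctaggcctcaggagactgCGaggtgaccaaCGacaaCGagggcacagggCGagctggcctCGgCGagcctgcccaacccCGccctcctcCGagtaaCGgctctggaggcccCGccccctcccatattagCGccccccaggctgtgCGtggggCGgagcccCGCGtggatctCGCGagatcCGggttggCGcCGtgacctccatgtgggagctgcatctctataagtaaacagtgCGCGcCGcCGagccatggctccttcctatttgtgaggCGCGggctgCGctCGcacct
Tet3: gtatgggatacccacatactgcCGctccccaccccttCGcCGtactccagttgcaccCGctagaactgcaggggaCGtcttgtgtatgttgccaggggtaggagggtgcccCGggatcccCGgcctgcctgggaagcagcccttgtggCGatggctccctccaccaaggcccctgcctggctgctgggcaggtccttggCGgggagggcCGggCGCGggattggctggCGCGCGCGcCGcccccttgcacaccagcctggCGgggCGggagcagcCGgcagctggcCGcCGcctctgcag
Usp7: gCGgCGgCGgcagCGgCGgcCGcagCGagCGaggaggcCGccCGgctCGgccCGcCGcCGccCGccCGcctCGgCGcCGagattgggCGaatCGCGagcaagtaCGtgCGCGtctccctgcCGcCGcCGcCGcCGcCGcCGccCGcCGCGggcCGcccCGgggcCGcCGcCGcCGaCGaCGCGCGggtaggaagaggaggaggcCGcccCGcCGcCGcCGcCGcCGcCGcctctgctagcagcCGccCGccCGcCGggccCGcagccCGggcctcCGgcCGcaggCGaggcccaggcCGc
The words TTTGGCGC, TTTGCCGC, TTTCGCGC and TTTCCCGC, forms of the E2F motif searched on both strands, occurred in 2 of the 17 member promoters, 1 of *Dnmt1* and 1 of *Uhrf1*, and in 2.26% of all promoters of this length. Neither of these genes could be followed in the counts.

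**Figure D2:**
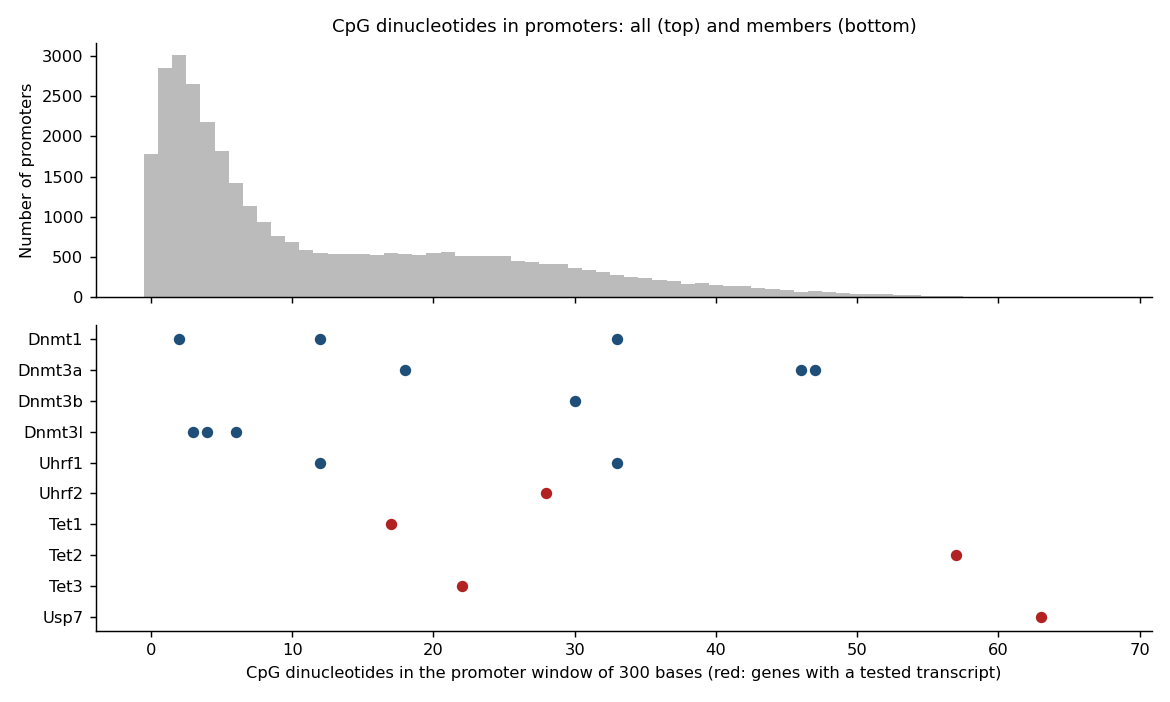
Number of CpG dinucleotides in promoters of 300 bases (horizontal axis), as a histogram of all 32851 RefSeq promoters (upper panel) and as 1 point for each of the 17 promoters of the 10 genes, 1 gene to a line and in red where a transcript was tested (lower panel). The promoters of *Usp7* (63) and *Tet2* (57) lie far to the right of the median of 7, and those of *Dnmt3l* (6, 4 and 3) lie to its left.

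Levels were compared between genes per length, for the 3 genes with 1 listed transcript, as CPM per kilobase of the longest coding transcript in GENCODE (5490 bases for *Usp7*, 3536 for *Uhrf2* and 14369 for *Tet1*). *Usp7*, the deubiquitinase, was highest in every group, with group means of 71.5 to 80.8 CPM per kilobase. *Uhrf2*, a paralog of *Uhrf1*, followed at 40.9 to 52.3, and *Tet1*, the TET enzyme best known from pluripotent cells, was at 0.256 to 0.293. The *Usp7* level per kilobase was 1.39 to 1.98 times that of *Uhrf2*, and that of *Uhrf2* was 148 to 205 times that of *Tet1*.

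The first comparison asked whether the mRNAs of the machinery differed after *Stella* knockout. None of the 5 tested members passed the test in KO against KO-con (edgeR's quasi-likelihood test with Benjamini-Hochberg adjustment over 9457 transcripts, called at an adjusted p under 0.05), while 11.8% of all transcripts tested were called and 5.83% were called higher in KO. DESeq2 called 0 members as well, and 1 had an unadjusted p under 0.05 with edgeR. The share of all transcripts at that unadjusted threshold is not given here or below, so such counts are not read as results. None passed the stricter rule that also asks for an absolute log2 fold change over 1, which 1.7% of transcripts did.

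*Usp7* had the lowest p of the 5. Its level was 458.3, 458.7 and 413.5 CPM in the KO-con libraries and 387.5, 386.4 and 404.1 CPM in the KO libraries, means of 443.5 ± 26.0 and 392.7 ± 9.91 (SD, n = 3). Every KO library lay below every KO-con library, which was so of 1 of the 5 members and, in either direction, of 30.5% of all transcripts tested. The log2 fold change was -0.17 (standard error 0.07, 95% interval -0.32 to -0.02), 0.890 of the control level, with an unadjusted p of 0.0268 and an adjusted p of 0.134 by edgeR, so the difference did not pass. Over 15 alternatives it lay between -0.22 and -0.02, with adjusted p between 0.104 and 0.945.

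*Uhrf2*, the only UHRF reader with counts, lay at 139.5, 153.9 and 140.4 CPM in KO-con and at 150.3, 131.1 and 160.7 CPM in KO. The groups overlapped, and the log2 fold change was 0.03 (95% interval -0.14 to 0.21, adjusted p = 0.856 by edgeR). This interval runs from 0.906 to 1.15 of the control level. *Tet3*, the TET enzyme known for oxidizing the paternal genome in the zygote, was at 8.38, 9.40 and 8.00 CPM in KO-con and at 8.06, 6.24 and 7.17 CPM in KO. The highest KO library lay just above the lowest KO-con library, and the log2 fold change was -0.27 (95% interval -0.63 to 0.09, adjusted p = 0.353 by edgeR).

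*Tet1* was at 4.03, 4.12 and 3.76 CPM in KO-con and at 3.92, 5.03 and 2.72 CPM in KO, with a log2 fold change of -0.02 (95% interval -0.55 to 0.51, adjusted p = 0.971 by edgeR). The KO libraries spread on both sides of the controls. *Tet2*, the TET enzyme best studied in blood cells, was at 0.621, 1.88 and 1.82 CPM in KO-con, from 6, 21 and 15 counts, and at 2.19, 2.43 and 1.27 CPM in KO, from 19, 28 and 14. Its log2 fold change was 0.44 (95% interval -0.41 to 1.30, adjusted p = 0.546 by edgeR), an interval from 0.750 to 2.47 of the control level. At these counts the intervals of *Tet1* and *Tet2* were wide, and changes of the sizes within them are not excluded. What size of change would have been called was not tested.

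**Figure D3:**
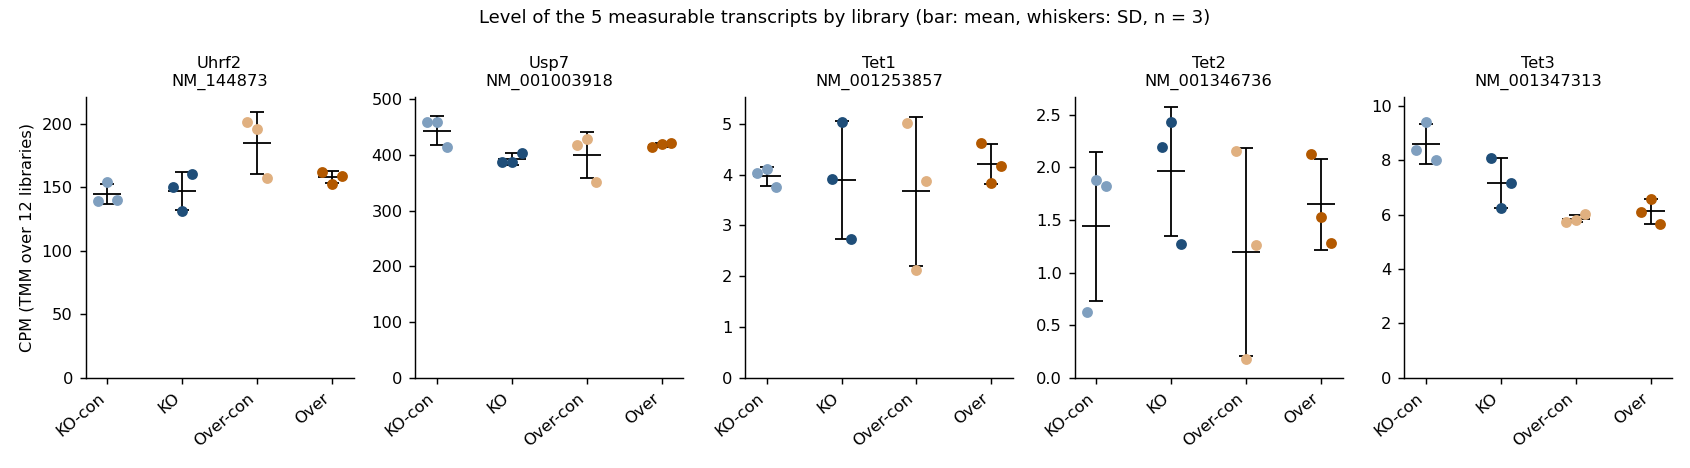
Level of each of the 5 tested members (CPM, vertical axes from 0) in the 12 libraries by group, each point 1 library and each black bar the mean with whiskers of 1 SD (n = 3). The KO points of *Usp7* lie below all KO-con points, the Over-con points of *Uhrf2* lie above all KO-con points and the KO-con points of *Tet3* lie above all Over-con points.

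The overexpression was compared with the empty vector in the same way. None of the 5 members was called among 9401 transcripts, where 1.65% were called by edgeR, 0.766% were called higher in Over and 0.17% also passed the fold change rule. DESeq2 called 0 members, and 1 had an unadjusted p under 0.05. In none of the 5 did the Over and Over-con libraries separate, against 19.3% of all transcripts tested.

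*Uhrf2* came closest, at 201.4, 196.3 and 157.4 CPM in Over-con and 162.5, 153.0 and 159.2 CPM in Over, means of 185.0 ± 24.1 and 158.2 ± 4.82 (SD, n = 3). The third Over-con library lay among the Over libraries, and the other two lay above all of them. The log2 fold change was -0.22 (standard error 0.08, 95% interval -0.40 to -0.04, adjusted p = 0.278 by edgeR). Without Over-con replicate 3 it was -0.32 with an adjusted p of 0.000837, the one library whose omission turned this into a call, and with it left out the number of transcripts called went from 155 to 719. Over the 15 alternatives the adjusted p lay between 0.000837 and 0.645.

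*Usp7* was at 417.0, 428.7 and 351.8 CPM in Over-con and 414.6, 418.8 and 421.4 CPM in Over, a log2 fold change of 0.08 (95% interval -0.08 to 0.23, adjusted p = 0.719 by edgeR). The Over libraries lay within the range of the control. *Tet3* was at 5.74, 5.81 and 6.02 CPM in Over-con and 6.11, 6.59 and 5.67 CPM in Over, with a log2 fold change of 0.08 (95% interval -0.30 to 0.45, adjusted p = 0.901 by edgeR). *Tet1* was at 5.02, 2.11 and 3.88 CPM in Over-con and 4.63, 3.83 and 4.17 CPM in Over, and its log2 fold change was 0.13 (95% interval -0.42 to 0.69, adjusted p = 0.879 by edgeR). *Tet2* was at 2.15, 0.176 and 1.26 CPM in Over-con and 2.13, 1.53 and 1.28 CPM in Over, with a log2 fold change of 0.32 (95% interval -0.65 to 1.29, adjusted p = 0.825 by edgeR). The second Over-con library, the shallowest of the 12, was the lowest for both *Tet1*, with 12 counts, and *Tet2*, with 1.

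KO-con was then compared with Over-con to show how far the members differ between lines in which *Stella* was neither knocked out nor overexpressed. The comparison of KO with KO-con shares the KO-con libraries with this one, and that of Over with Over-con shares the Over-con libraries. Here 2 of the 5 members were called, *Uhrf2* lower and *Tet3* higher in KO-con, against 16.3% of 9321 transcripts called in either direction and 8.19% called lower. Neither passed the fold change rule, which 2.16% of transcripts did. The libraries of the groups did not overlap for the same 2 members, against 32.1% of all transcripts.

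*Uhrf2* had means of 144.6 ± 8.08 CPM in KO-con and 185.0 ± 24.1 CPM in Over-con (SD, n = 3), from the library values given above. Its log2 fold change was -0.34 (standard error 0.09, 95% interval -0.53 to -0.16, adjusted p = 0.0106 by edgeR), 0.787 of the Over-con level. The call was lost without KO-con replicate 1, without KO-con replicate 3 and without Over-con replicate 1, with adjusted p up to 0.0859, and the log2 fold change stayed between -0.46 and -0.28. *Tet3* had means of 8.59 ± 0.724 CPM and 5.86 ± 0.144 CPM in the same groups. Its log2 fold change was 0.56 (SE 0.18, 95% interval 0.19 to 0.94, adjusted p = 0.0358 by edgeR), or 1.48-fold. This call was lost with DESeq2 (adjusted p = 0.115), with library totals in place of TMM (0.0579), with the replicate number as a block (0.0502), and when KO-con replicate 1, 2 or 3 or Over-con replicate 1 or 2 was left out (up to 0.156).

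*Usp7*, *Tet1* and *Tet2* were not called between the controls. Their log2 fold changes were 0.16 (95% interval -0.01 to 0.33, adjusted p = 0.197), 0.06 (adjusted p = 0.915) and 0.13 (95% interval -0.92 to 1.18, adjusted p = 0.902) by edgeR. The summed levels of some cell type markers also differed between groups, though not all of them between the controls. The summed level of the germ cell markers was 112.7 to 138.1 CPM in KO-con, 77.1 to 119.1 in KO, 150.5 to 164.9 in Over-con and 146.7 to 160.3 in Over, where 28.4 to 32.1 CPM were the *Stella* transgene. Apart from the transgene this sum was almost wholly *Ifitm3*, at 76.8 to 164.0 CPM over the 12 libraries. *Prdm1* added at most 1.97 CPM, so the sum is not read as a level of germ cells. The summed level of the fibroblast markers was 1351 to 1571 CPM in KO-con, 1204 to 1725 in KO, 1926 to 2112 in Over-con and 1673 to 1733 in Over. That of the mast cell markers was 446 to 504 CPM in KO-con, 1223 to 1312 in KO, 881 to 982 in Over-con and 740 to 769 in Over. It was mostly *Cpa3*, at 362.9 to 1214 CPM over the 12 libraries, and *Il1rl1*, at 66.4 to 120.6 CPM. *Kit*, *Tpsb2* and *Mcpt4* had 10, 8 and 3 counts over the 12 libraries, so the sum is not read as a level of mast cells. That of the macrophage markers was 33.9 to 41.3 CPM in KO-con, 43.0 to 51.5 in KO, 35.7 to 41.6 in Over-con and 48.4 to 51.1 in Over. It was mostly *Cd68*, at 25.6 to 44.6 CPM over the 12 libraries, and *Cd14*, at 3.34 to 11.4 CPM. *Adgre1* and *Itgam* had 0 counts in all 12 libraries, so the sum is not read as a level of macrophages. For the macrophage sum, each engineered line lay above its own control. Of all transcripts tested, 30.5% did not overlap in KO against KO-con and 19.3% in Over against Over-con, in either direction. This separation is not read as a result. The oocyte markers summed to between 0.642 and 1.84 CPM in all groups. The part of these cell type markers in the *Uhrf2*, *Tet3* and *Usp7* values was not tested, and in bulk RNA fewer cells of a type and less RNA per cell cannot be told apart.

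With the controls exchanged, KO against Over-con called 0 of the 5 members, where 7.87% of transcripts were called, and Over against KO-con called 1, where 21.5% were. The member was *Tet3*, with a log2 fold change of -0.48 in Over against KO-con (adjusted p = 0.0319 by edgeR). *Uhrf2* was at -0.33 in KO against Over-con (adjusted p = 0.0853) and at 0.13 in Over against KO-con (adjusted p = 0.107) by edgeR, the opposite sign to that against its own control in each case. *Tet3* was at 0.28 in KO against Over-con (adjusted p = 0.482 by edgeR), so that with the controls exchanged its sign changed in both comparisons as well. For *Usp7* the values were -0.02 (adjusted p = 0.945) in KO and -0.08 (adjusted p = 0.298) in Over by the same test, with a change of sign in Over. *Tet1* in KO was at 0.03 (adjusted p = 0.982 by edgeR), also with a change of sign.

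Whether the knockout and overexpression effects differed was tested with all 12 libraries in 1 fit. None of the 5 members was called by edgeR or by DESeq2, against 8.64% of 9903 transcripts by edgeR, and 1 had an unadjusted p under 0.05. That was *Usp7*, whose effects differed by -0.25 on the log2 scale (95% interval -0.46 to -0.03, unadjusted p = 0.0250, adjusted p = 0.152). *Uhrf2* had a difference of 0.25 (95% interval -0.01 to 0.51, adjusted p = 0.254 by edgeR), which passed only when Over-con replicate 3 was left out (0.36, adjusted p = 0.0362). The differences of *Tet1*, *Tet2* and *Tet3* were -0.16, 0.12 and -0.34, with adjusted p of 0.862, 0.946 and 0.408 by edgeR.

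**Figure D4:**
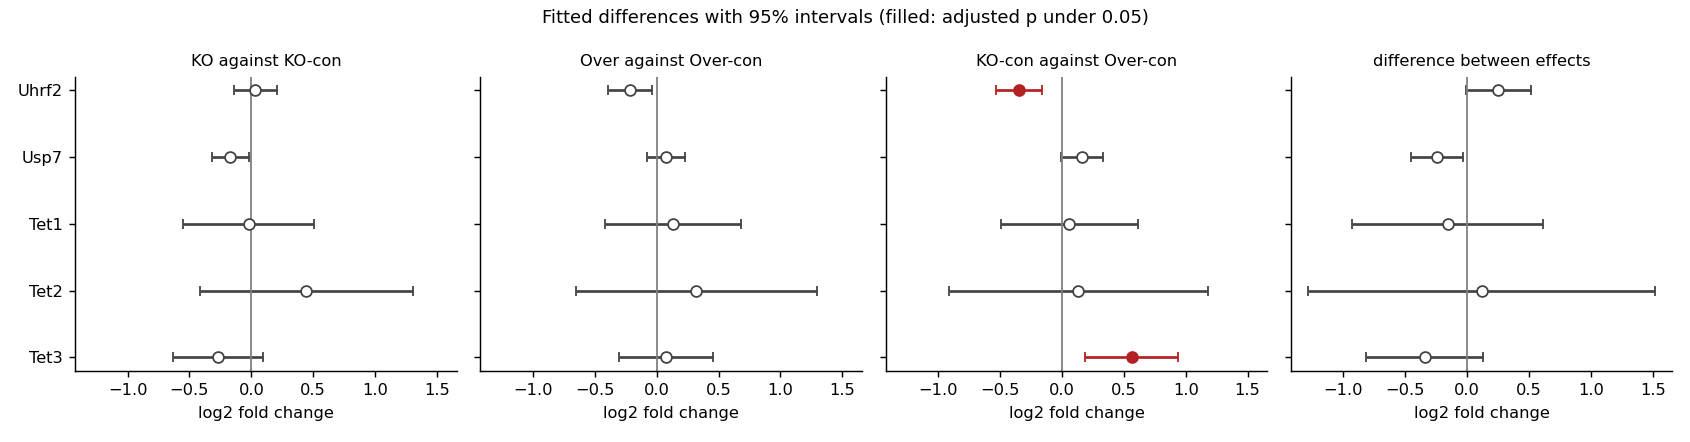
Log2 fold change (horizontal axis) with its 95% interval from edgeR for each of the 5 tested members with 1 panel for the knockout, 1 for the overexpression, 1 for the controls and 1 for the difference between effects. Only *Uhrf2* and *Tet3* in the comparison of the controls were called, and the *Tet2* intervals are the widest.

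Levels were also set side by side across the 12 libraries, as a description without a test, since libraries share their group and their depth. Over 9902 transcripts of other genes, the Pearson correlation of log2 CPM with *Usp7* was highest for *Baz1b* (0.943), *Prrc2c* (0.938) and *Nktr* (0.918). With *Uhrf2* it was highest for *Wdr26* (0.939), *Sema3d* (0.928) and *Ccdc82* (0.916), and with *Tet3* for *Jpt2* (0.933), *Foxn3* (0.931) and *Ipo8* (0.916). Among the members themselves, the highest value was that of *Tet1* and *Tet2* (0.78), both of which were lowest in the shallowest library, and the lowest that of *Uhrf2* and *Tet3* (-0.51).

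Genes that work beside the machinery were counted by list. Maintenance partners, which include *Pcna*, the remodeller *Hells* and heterochromatin proteins, numbered 21 genes, of which 11 had a transcript tested in KO against KO-con. In KO 2 of these 11 rose and 0 fell by edgeR, beside 11.8% of all transcripts called and 5.83% called higher. In Over 0 of 11 and between the controls 0 of 10 passed, beside 1.65% and 16.3% of all transcripts. The median log2 fold change of the list was 0.06 in KO, 0.19 in Over and -0.08 between the controls. Over all transcripts it was 0.01, -0.0012 and -0.0046. In the same 3 comparisons DESeq2 called 3, 1 and 0 partners. At an unadjusted p under 0.05 with edgeR the counts were 4, 5 and 2. No share of all transcripts at that threshold is at hand to set beside these or the lists below. *Hells*, a chromatin remodeller needed for DNA methylation, rose from 37.3 ± 0.971 to 47.1 ± 3.06 CPM in KO, a log2 fold change of 0.34 (adjusted p = 0.0220 by edgeR). *Cdca7l*, a relative of the HELLS partner CDCA7, rose from 33.5 ± 5.44 to 44.0 ± 3.90 CPM, by 0.41 (adjusted p = 0.0327 by edgeR). *Hells* lost the call without each KO-con library in turn and under the replicate block, *Cdca7l* without KO-con replicate 2 or 3 or KO replicate 2, and both against Over-con, so that between 0 and 3 partners were called over the 15 alternatives. In Over the count reached 6 with KO-con as the control, where 21.5% of all transcripts were called.

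The removal and repair genes (19 genes, among them the glycosylase *Tdg*) had 10 transcripts tested in each comparison. In KO and in Over 0 of 10 were called by edgeR and by DESeq2, beside 11.8% and 1.65% of all transcripts called by edgeR. At an unadjusted p under 0.05 the counts were 4 and 0. With KO-con as the control 4 were called in Over, where 21.5% of all transcripts were. Between the controls *Apex1*, the endonuclease of base excision repair, was higher in KO-con, where its level was 122.7 ± 6.64 CPM beside 92.2 ± 10.0 CPM, with a fitted difference of 0.42 (adjusted p = 0.00200 by edgeR), the 1 call of 10, beside 16.3% of all transcripts called, which became 2 without Over-con replicate 3. In KO at most 1 was called under any alternative. Proteins that bind methylated or unmethylated CpG (12 genes, 6 transcripts tested) had 0 calls in KO, in Over and between the controls by either tool. Over all transcripts 11.8%, 1.65% and 16.3% were called by edgeR, so 0 of 6 is not read as a result about this list. At an unadjusted p under 0.05 its counts were 1, 0 and 0. The TET and DNMT cofactors and partners numbered 18 genes, such as the isocitrate dehydrogenases. By either tool 0 of 8 tested in KO, 0 of 7 in Over and 0 of 8 between the controls were called. Beside the same shares over all transcripts, these 0 calls are not read as a result either. At an unadjusted p under 0.05 the cofactor counts were 2, 0 and 1. Over the alternatives at most 1 transcript of the binding proteins and at most 1 of the cofactors was called in any of these comparisons.

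The methyl donor cycle supplies S-adenosylmethionine, the methyl group donor of the DNMTs. Of its 18 genes, 9 transcripts were tested. In KO 0 of the 9 fell by edgeR, beside 11.8% of all transcripts called and 564 of 9457 called lower. This 0 is not read as a result about the list. *Mtr*, methionine synthase, rose from 81.7 ± 1.12 to 101.6 ± 3.63 CPM, a log2 fold change of 0.32 (adjusted p = 0.00877 by edgeR), and was called under all 15 alternatives. The median log2 fold change of the list was -0.14 in KO, 0.18 in Over and 0.18 between the controls. Over all transcripts it was 0.01, -0.0012 and -0.0046. In Over 1 of 9 rose, beside 0.766% of all transcripts called higher. This was *Ahcy*, which hydrolyses S-adenosylhomocysteine, from 108.7 ± 15.0 to 140.9 ± 2.96 CPM, by 0.37 (adjusted p = 0.0357 by edgeR). *Ahcy* was also higher in KO-con than in Over-con, at 140.1 ± 6.94 CPM, by 0.37 (adjusted p = 0.00730 by edgeR, and 0.0552 without KO-con replicate 1), and the comparisons share the Over-con libraries. Its call in Over was lost under 8 of 15 alternatives, among them the omission of Over-con replicate 1 or 2 or of any Over library, and against KO-con the log2 fold change was 0.01.

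Maintenance methylation follows the replication fork, and 24 replication genes were counted for that reason, with 17 transcripts tested. In KO 7 of 17 rose and 0 fell, with a median log2 fold change of 0.31, beside 11.8% of all transcripts called, 5.83% called higher and a median of 0.01. *Mki67*, the proliferation marker, rose from 112.4 ± 8.55 to 164.5 ± 17.5 CPM, by 0.55 (adjusted p = 0.000595 by edgeR), *Top2a* by 0.43 (adjusted p = 0.000849) and *Rrm1*, a ribonucleotide reductase subunit, by 0.41 (adjusted p = 0.00184). Against Over-con 0 of these genes were called in KO by edgeR, where 7.87% of all transcripts were called. There the log2 fold change of *Mki67* was -0.01. Between the controls 7 of 17 were lower in KO-con and 0 higher, with a median of -0.25, beside 16.3% of all transcripts called, 8.19% called lower and a median of -0.0046. Among them were *Rrm2* (-0.60, adjusted p = 0.000180 by edgeR), *Mki67* (-0.55, adjusted p = 0.000368) and *Rrm1* (-0.42, adjusted p = 0.00123), and this count was 4 to 7 over the alternatives, moving most without KO-con replicate 1, 2 or 3 or Over-con replicate 1. In Over 2 of 17 rose, with a median of 0.25, beside 1.65% of all transcripts called, 0.766% called higher and a median of -0.0012. *Cdt1*, a licensing factor, rose from 29.5 ± 3.05 to 44.9 ± 2.54 CPM (0.61, adjusted p = 0.00375 by edgeR). *Mcm3*, a helicase subunit, rose from 92.7 ± 7.68 to 114.9 ± 3.36 CPM (0.31, adjusted p = 0.0449 by edgeR). The count was 1 under the replicate block or without Over-con replicate 1 or 2 or any 1 Over library. It was 4 with DESeq2, without a filter or without Over-con replicate 3. With KO-con as the control it was 13, where 21.5% of all transcripts were called. The lists were chosen with earlier results known, and no test of a list as a whole was made.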

How the data were processed

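Libraries of 12 mouse FGSC samples were made from total RNA with the KAPA stranded mRNA kit. The authors trimmed the reads, mapped them to mm9 with HISAT2 and deposited raw counts per RefSeq transcript, without normalization. The annotation release, the strand setting and the treatment of reads shared between transcripts are not given in the sources used here. Groups and replicate numbers came from the sample titles. Of the 41388 accessions, 41186 matched a symbol in the RefSeq table of GRCm38.p6, and positions came from the GENCODE annotation of mm9. Unmatched accessions were kept in every fit.

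Counts were tested per transcript with edgeR 4.0.16 in R 4.3.3 (TMM, filterByExpr, glmQLFit, glmQLFTest). P-values were adjusted by the Benjamini-Hochberg method across every transcript in the fit, with calls at an adjusted p under 0.05. The biological coefficient of variation was 0.0819, 0.0735, 0.0787 and 0.0780 in the 4 comparisons. Standard errors were derived from the F statistic, and 95% intervals from its degrees of freedom. CPM were scaled over all 12 libraries, and log2 CPM had a prior count of 2. Library pairs within groups differed by more than counting noise (chi-square divided by its degrees of freedom, 1.93 to 12.3), so each library was counted. Alternatives were DESeq2 1.42.0, other scaling factors, no filter, a replicate block, all 12 libraries in 1 fit, counts summed per gene, the other control group and each library left out. The lists of related genes were put through the same alternatives, and single members through the exchange of controls, choices made after seeing the data. The fit was tested on simulated counts.

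The members, lists and tests were chosen with earlier results of these data known. All 10 members were named, and from each list the 3 called transcripts with the lowest adjusted p in a comparison, except 1 that is not reported here. For the 3 members with the highest mean CPM, the 3 most correlated transcripts were named. Summaries used Python 3.11.15, pandas 2.3.3, numpy 2.4.6 and matplotlib 3.10.9.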

Additional observations from a re-analysis of the deposited data

Results flagged for a closer look

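For 3 genes of the related lists, the knockout and overexpression effects differed in the fit of all 12 libraries, by edgeR's test of the difference itself. They were 1 of 12 maintenance partners tested, 1 of 9 methyl donor transcripts and 1 of 7 transcripts of binding proteins. The removal and repair genes had 0 of 10, the cofactors 0 of 8 and the replication genes 0 of 18. Over all transcripts 8.64% were called, so the number of calls is not read as a result about the lists. *Trim28*, a corepressor that protects imprinted methylation, was at 469.1 ± 17.4 CPM in KO-con, 394.3 ± 35.8 in KO, 431.3 ± 21.7 in Over-con and 496.6 ± 9.66 in Over (SD, n = 3), a difference between effects of -0.45 (adjusted p = 0.00547) that was called under all 19 alternatives. By itself, neither the knockout effect nor the overexpression effect on *Trim28* was called by edgeR. *Ahcy* was at 140.1 ± 6.94, 126 ± 19.5, 108.7 ± 15.0 and 140.9 ± 2.96 CPM, a difference of -0.51 (adjusted p = 0.0269) that was lost under 6 of the 19, each leaving out 1 library of KO-con, Over-con or Over. The *Mbd2* transcript NM_001311071, 1 of 2 listed, was at 0.930 ± 0.324, 0.256 ± 0.0972, 0.734 ± 0.0751 and 1.25 ± 0.438 CPM, near the floor of 3 counts, with a difference of -2.63 (adjusted p = 0.0197). It was lost under 5 of the 19, DESeq2 gave no adjusted p and so did not call it, and with counts summed per gene it was 0.037 (adjusted p up to 0.888 over the alternatives).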

How the results depend on the processing

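Of 165 values of single members under alternatives other than leaving out a library, 155 kept their direction and their side of the threshold. Between the controls *Tet3* was no longer called under DESeq2, library totals and the replicate block, and *Tet1* in KO was 0.016 with library totals. The other 6 changed sign with the controls exchanged: in KO *Uhrf2* was then -0.33, *Tet3* 0.28 and *Tet1* 0.030, and in Over *Uhrf2* was 0.13, *Usp7* -0.081 and *Tet3* -0.48, the last of which was called (adjusted p = 0.0319 by edgeR). Scaling by library totals moved the median of all transcripts by at most 0.06 on the log2 scale. Of 150 values with 1 library left out, 124 kept both.

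Members called between the controls numbered 1 with DESeq2, 1 with library totals, 1 with the replicate block and 0 with an absolute log2 fold change over 1, and 0 to 2 with a library left out. In Over the count was 1 with KO-con as the control and 0 to 1 with a library left out, as it was for the difference between effects. Transcripts called in Over against Over-con were 155, against 302 without a filter, 67 with the replicate block and 48 to 719 with a library left out (719 without Over-con replicate 3). With a library left out, 613 to 1271 were called in KO (613 without KO-con replicate 1), 882 to 1988 between the controls (882 without KO-con replicate 1) and 536 to 1126 for the difference between effects (536 without Over replicate 2).

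With a library left out, log2 fold changes in KO lay between -0.27 and 0.18 for *Tet1* and between -0.042 and 0.11 for *Uhrf2*. In Over they lay between -0.025 and 0.96 for *Tet2*, -0.069 and 0.41 for *Tet1* and -0.0074 and 0.14 for *Usp7*. Between the controls they lay between -0.23 and 0.77 for *Tet2* and -0.15 and 0.33 for *Tet1*, and for the difference between effects between -0.52 and 0.48 for *Tet2* and -0.43 and 0.056 for *Tet1*. None of these was called. Against Over-con, *Mki67* in KO was -0.0090 and *Rrm1* -0.028, and *Mbd2* summed per gene was 0.037 for the difference between effects. The causes were not tested.

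No shared effect of the replicate number was visible: the correlation of same-numbered deviations lay between -0.152 and 0.057. This cannot show whether same-numbered libraries were prepared together. The replicate block moved transcripts called in Over from 155 to 67 and ended the *Tet3* call between the controls (0.55, adjusted p = 0.0502 by edgeR). Depth limits *Tet1* and *Tet2*, with 12 to 58 and 1 to 28 counts a library, and the 5 members at or near 0 counts were not tested under any setting that kept the filter on low counts.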
